A study of Mus musculus with 8 samples.

Results

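Interferon-stimulated genes are the genes that cells switch on when they sense interferon, and 43 of them, a hand-chosen list of mouse symbols, were followed here in lymphoma cells given a BET inhibitor. Of the 43 listed genes, 41 had a row among the 43629 genes counted, and Gbp5 and Gbp6 were not matched to one. Only 15 of the 41 had enough reads to be tested, out of 12413 genes tested in all. After JQ1, 11 of these 15 fell and 2 rose, where 31.3% of all tested genes fell and 30.7% rose. Among the 11, Irgm2 and Ifi47 passed the filter mainly through their DMSO libraries, so the 15 are not a fair sample of the list. Parp14 fell the most of the 15, by 5.47-fold, and its neighbour Dtx3l fell 3.24-fold, while the transcription factor subunits Stat2 and Irf9 rose 1.37-fold each.

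RNA was sequenced from Eμ-Myc lymphoma lines #1.1 and #1.2, from C57BL/6 mice. Both lines come from mice with a Myc transgene under the immunoglobulin heavy chain enhancer, which develop B lineage lymphomas, so the control cells carry the transgene too. Early-passage cells in culture had been given 250 nM JQ1, which displaces BET bromodomain proteins from acetylated chromatin, or the vehicle DMSO, for 2 h. Each line and treatment had 2 libraries, 8 in 4 groups. Whether the replicates came from separate cultures is not in the labels. The p-values below therefore reflect only the spread between libraries, and that spread may be technical. Each line is a single tumour line, and no library was treated with interferon, so the comparison concerns the basal level of these genes and its response to JQ1.

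In interferon signalling, type I interferons bind a receptor of Ifnar1 and Ifnar2, and interferon gamma binds Ifngr1 and Ifngr2. The receptors' JAK kinases phosphorylate STAT proteins. Stat2 and Irf9 are subunits of the ISGF3 complex, which binds interferon-stimulated response elements with a core of repeated GAAA, and STAT dimers bind a palindrome of TTC and GAA called the gamma-activated site. Many interferon-stimulated genes are nearly silent without interferon, and others keep a basal level in lymphoid cells.

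The libraries held 10347453 to 13049877 reads assigned to genes, with 17278 to 17738 genes detected. Replicates of a group differed by more than counting noise, with a chi-square per degree of freedom of 1.36 to 4.09. Of 10 B lineage markers 8 were tested, and the list summed to 1989 to 2145 CPM (reads relative to the library's total, scaled by edgeR's TMM factors) in DMSO and 1313 to 1478 CPM in JQ1 libraries. None of 9 T cell, 6 NK cell or 6 erythroid markers reached the filter, and each of these lists summed to at most 0.993 CPM in any library. Of 11 myeloid markers 2 were tested and the list summed to 4.03 to 5.80 CPM in DMSO and 9.40 to 12.9 CPM in JQ1, with Lyz2 at 0 reads and most of the signal in Cd68. Of 6 dendritic markers only Zbtb46 was tested, and the list summed to 0.361 to 0.828 CPM in DMSO and 1.15 to 1.82 CPM in JQ1. Of 9 stromal or endothelial markers Pecam1 and Cdh5 were tested, and the list summed to 87.3 to 98.7 CPM in DMSO and 18.8 to 24.3 CPM in JQ1. Nearly all of that sum was Pecam1, at 85.9 to 97.5 CPM in DMSO, and the other 7 markers had 0 reads in every library. The B lineage, myeloid, dendritic and stromal or endothelial lists thus moved with JQ1, and their part in the results below was not tested. In bulk RNA, fewer cells of a type and less RNA per cell cannot be told apart.

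The letters before these genes' starts show which of them match IRF and STAT elements, the kinds that interferon signalling uses, and an ETS-IRF element searched beside them. Promoters came from a RefSeq table (build GRCm38.p6) and were searched on both strands, in the 250 bases before the start, for an IRF element (GAAANNGAA), a STAT element (TTCNNNGAA) and an ETS-IRF element (GGAANNGAA). These motifs may overlap one another. Of the 43 genes, 32 were matched in the table, and Gbp4, Gbp6, Gbp8, Gbp9, Iigp1, Mx1, Parp14, Parp9, Rtp4, Usp18 and Zbp1 were not. At the first start of each gene, 20 of the 32 (62.5%) held an IRF element, against 7.16% of the first starts of 27025 genes and 7.13% of all 32851 starts. A STAT element was in 10 of the 32, against 7.14% of all genes' first starts, and an ETS-IRF element in 7, against 7.04%. The IRF element was in 6 of the 13 tested genes with a promoter entry and in 14 of the 19 untested ones. The 19 include Gbp5, which held the element but had no row of counts. The element was thus not a feature of the tested genes alone. Among the 9 genes with an entry that fell after JQ1, 4 held an IRF element. A match describes the letters and does not show a bound site.

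Promoters of 3 immunity-related GTPase genes are shown because they share 1 layout, in which a STAT, an ETS-IRF and an IRF element overlap, while their counts differ. Igtp and Irgm2 had a low level and fell after JQ1, and Tgtp1, whose exons overlap those of Gm12185 on the same strand, had 0 reads. Tgtp2, with 1 read in all, had the same layout, with its STAT element 81 and its IRF element 70 bases before the start, and is not printed. Capitals mark the matched elements, each sequence runs 5′ to 3′ on the gene's strand, and it stops where an annotated exon begins. The stretches are chr11:58199306-58199555 (plus strand) for Igtp, chr11:58214727-58214976 (plus) for Irgm2 and chr11:48992259-48992496 (minus) for Tgtp1. The STAT element began 45 bases before the start in Igtp, 75 in Irgm2 and 88 in Tgtp1. The IRF element began 34, 64 and 77 bases before it.
Igtp: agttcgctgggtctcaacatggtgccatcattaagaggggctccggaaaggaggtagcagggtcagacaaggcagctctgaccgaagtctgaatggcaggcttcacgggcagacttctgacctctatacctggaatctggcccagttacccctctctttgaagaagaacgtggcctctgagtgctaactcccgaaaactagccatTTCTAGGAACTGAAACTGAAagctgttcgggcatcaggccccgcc
Irgm2: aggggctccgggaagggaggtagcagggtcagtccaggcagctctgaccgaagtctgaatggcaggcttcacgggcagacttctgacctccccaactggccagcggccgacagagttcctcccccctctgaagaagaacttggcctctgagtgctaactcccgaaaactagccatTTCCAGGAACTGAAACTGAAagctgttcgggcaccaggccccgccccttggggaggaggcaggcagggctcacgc
Tgtp1: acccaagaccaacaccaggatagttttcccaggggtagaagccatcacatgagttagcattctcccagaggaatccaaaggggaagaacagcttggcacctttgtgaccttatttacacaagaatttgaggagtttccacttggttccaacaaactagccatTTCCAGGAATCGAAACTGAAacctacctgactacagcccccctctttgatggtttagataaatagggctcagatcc

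Isg15 and Ifit3 are shown as classical targets that were silent or nearly so in these cells, Bst2 as a transcribed gene with the same kind of element whose level did not pass the test, and Stat2 as a gene that rose. The stretches are chr4:156200819-156201068 (minus) for Isg15, chr19:34583279-34583528 (plus) for Ifit3, chr8:71537473-71537722 (minus) for Bst2 and chr10:128270248-128270497 (plus) for Stat2. Isg15 held 3 overlapping IRF elements, which began 78, 72 and 66 bases before its start. In Ifit3 the 3 IRF elements lay on the other strand, and in Bst2 a STAT element overlapped the first of 2 IRF elements, which overlapped each other. Stat2 held 1 IRF and 1 ETS-IRF element, both on the other strand, which overlap.
Isg15: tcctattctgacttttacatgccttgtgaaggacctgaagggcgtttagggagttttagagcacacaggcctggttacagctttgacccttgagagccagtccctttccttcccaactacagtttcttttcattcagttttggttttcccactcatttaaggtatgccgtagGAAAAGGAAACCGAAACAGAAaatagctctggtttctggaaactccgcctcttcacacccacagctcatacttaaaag
Ifit3: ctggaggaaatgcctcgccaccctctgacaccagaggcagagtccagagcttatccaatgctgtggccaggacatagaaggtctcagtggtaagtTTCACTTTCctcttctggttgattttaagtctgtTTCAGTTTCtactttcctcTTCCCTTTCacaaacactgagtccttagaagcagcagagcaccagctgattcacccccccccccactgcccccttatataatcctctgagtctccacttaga
Bst2: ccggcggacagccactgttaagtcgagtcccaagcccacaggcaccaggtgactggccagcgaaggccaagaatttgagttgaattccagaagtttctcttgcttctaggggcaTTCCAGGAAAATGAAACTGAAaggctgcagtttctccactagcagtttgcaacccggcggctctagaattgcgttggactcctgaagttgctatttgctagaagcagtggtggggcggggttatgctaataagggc
Stat2: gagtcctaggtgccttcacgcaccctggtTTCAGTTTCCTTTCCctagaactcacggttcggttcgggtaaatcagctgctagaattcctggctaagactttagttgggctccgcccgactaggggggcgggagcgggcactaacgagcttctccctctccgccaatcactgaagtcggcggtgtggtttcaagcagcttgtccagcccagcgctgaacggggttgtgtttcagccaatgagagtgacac

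Most of the listed genes had few reads or none. Reads were absent in all 8 libraries for 11 genes. These were Ifit3, which binds viral RNA with its relatives, Oas1a and Oasl1 of the oligoadenylate synthetase family, the guanylate-binding protein genes Gbp4, Gbp7 and Gbp8, the immunity-related GTPase genes Iigp1 and Tgtp1, the RNA sensor gene Ifih1, the receptor transporter gene Rtp4 and the nucleic acid sensor gene Zbp1. At these depths 0 reads allow a level of up to 0.230 to 0.290 CPM in a library (3 counts, counting error only). Annotated exons of Gbp4, Gbp7, Gbp8, Rtp4 and Tgtp1 overlap those of another gene on the same strand. For these genes the bound does not cover reads lost as ambiguous. The same holds for Oasl1, whose exons overlap those of Gm13822 on the opposite strand, if the counting ignored strand. A further 15 genes had between 1 and 42 reads over the 8 libraries together and were not tested. Xaf1 had the most with 42 reads, followed by Gbp3 with 34, Irf7 with 19, Usp18 with 18 and Isg15 with 10. Mx1 and Cxcl9 had 9 each, Ifit2 and Rsad2 7 each, Gbp9 4, Gbp2 3, Oasl2 2, and Ifit1, Tgtp2 and Cxcl10 1 each.

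The 26 untested genes with a row summed to 12 to 27 reads per library, and no single one had more than 10 reads in any library. By role, none of 8 RNA-binding sensors and effectors, none of the 6 guanylate-binding protein genes with a row, neither gene of the ISG15 pathway and neither chemokine gene was tested. The tested genes were 4 of 5 signal transducers, 4 of 8 other antiviral effectors, 4 of 7 immunity-related GTPase genes and all 3 genes of the ADP-ribosyltransferase complex. With no filter on low counts, 15 of the 26 could be fitted. One was then called in the averaged JQ1 effect, Gbp3 (edgeR's quasi-likelihood test, adjusted p = 0.0461). Gbp3 had 4, 6, 4 and 10 reads in the DMSO libraries and 1, 1, 4 and 4 in the JQ1 libraries. Irf7, the transcription factor that amplifies type I interferon production, had 4 and 5 reads in DMSO and 0 in both JQ1 libraries of line 1.1. It was called in line 1.1 in the same unfiltered fit (edgeR adjusted p = 0.0148). In line 1.2 it had 2 and 3 reads in DMSO and 1 and 4 in JQ1, so the libraries of that line overlapped. Gbp3 and Irf7 were named after their values were seen.

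**Figure D1:**
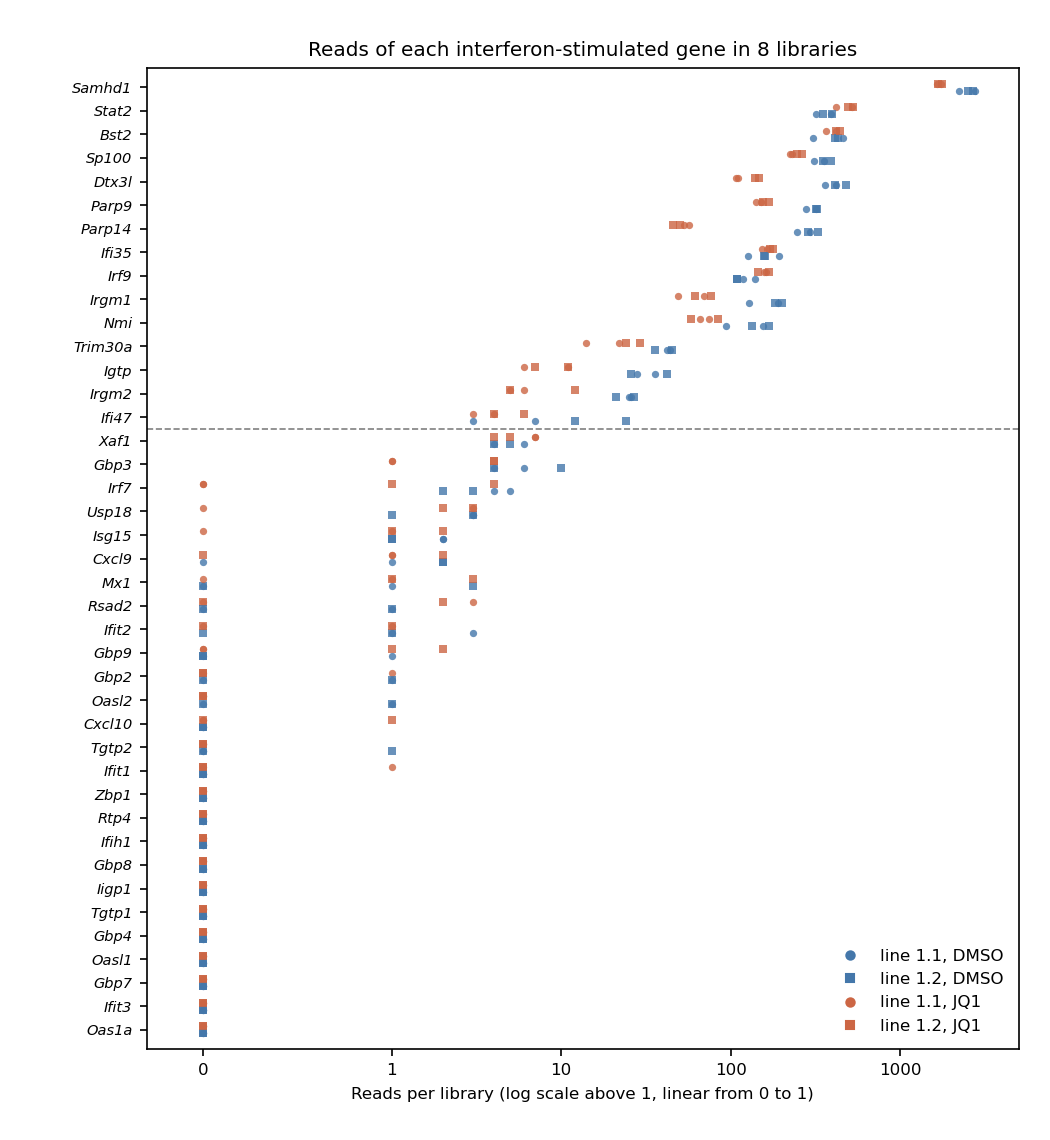
Reads of each of the 41 interferon-stimulated genes with a row (vertical axis) in each of the 8 libraries (points), on a horizontal axis that is linear from 0 to 1 and logarithmic above. Most genes lie at 0 to 10 reads, and Samhd1 lies farthest to the right.

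The first comparison asked how JQ1 changed the expressed genes in both lines. Averaged over the lines, 2 of the 15 tested genes rose, 11 fell and 2 did not pass the test (edgeR's quasi-likelihood F test, Benjamini-Hochberg adjusted over all genes at 0.05). Against a fold change of 1.5, Stat2, Irf9, Samhd1, Sp100, Trim30a and Ifi47 did not pass. JQ1 acted on much of the transcriptome, since 62.0% of all tested genes were called, 30.7% higher and 31.3% lower. The median log2 change was -0.92 over the 15 genes and 0.00 over all genes tested, whose median absolute log2 change was 0.25. The 15 are not a fair sample of the list, because a gene low in JQ1 could pass the filter through its DMSO libraries. Ifi47 reached the filter's level of 0.871 CPM in 2 DMSO libraries and no JQ1 library, and Irgm2 in 4 DMSO libraries and 1 JQ1 library. Within line 1.1, 2 genes rose (24.9% of all genes did) and 10 fell (26.1% of all genes). Within line 1.2, 2 rose (24.4% of all genes) and 10 fell (25.0%). Summed over the listed genes, the level was 441 to 484 CPM in the DMSO libraries and 309 to 339 CPM in the JQ1 libraries, and Samhd1 alone made up 143 to 227 CPM.

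**Figure D2:**
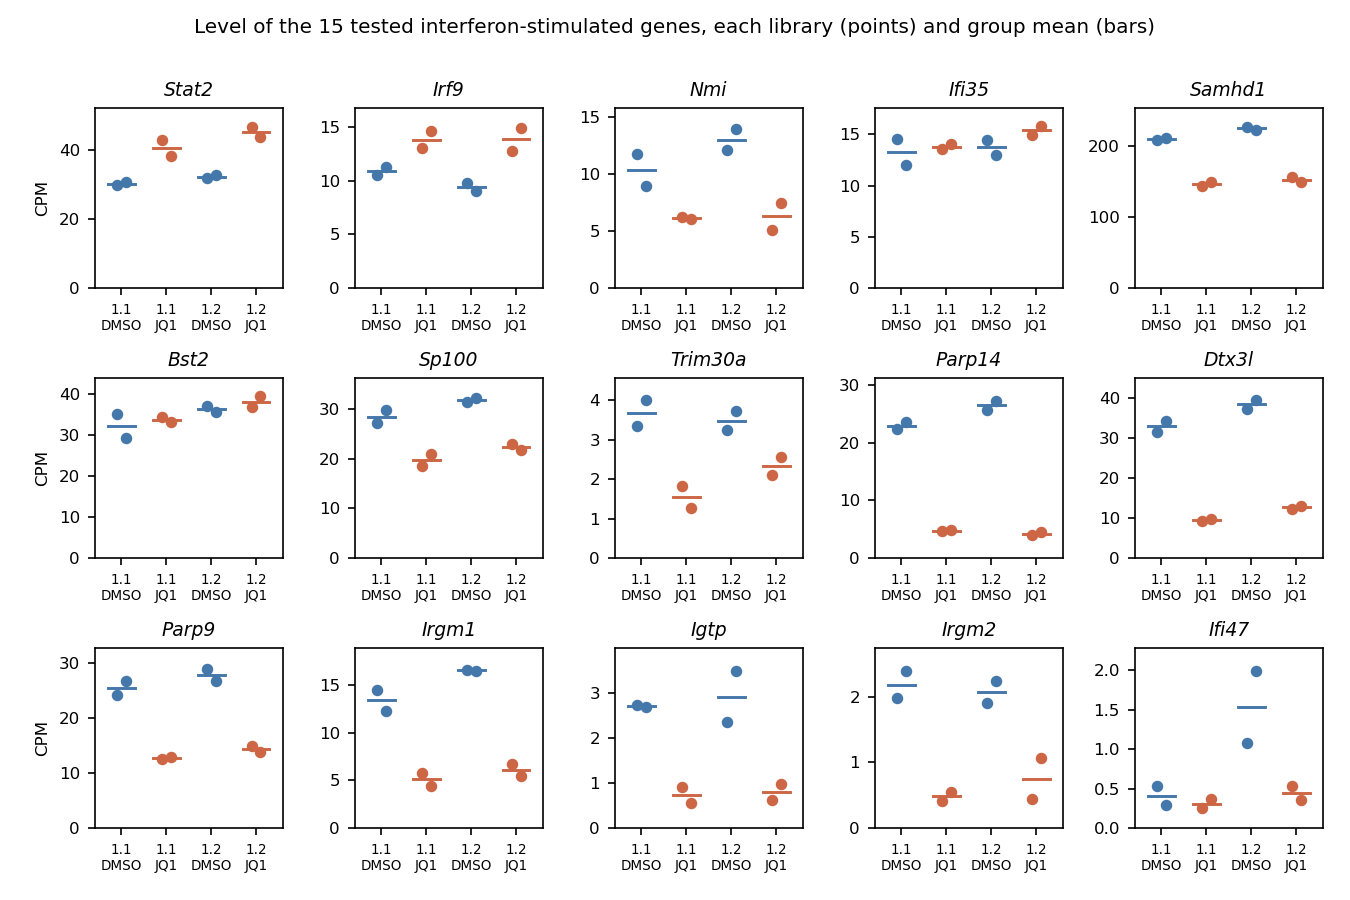
Level in CPM of the 15 tested genes (1 panel each, vertical axes from 0) in each library (points) with the mean of each group of 2 libraries (bars). JQ1 libraries lie below DMSO libraries in both lines for Parp14, Dtx3l, Parp9, Irgm1 and Samhd1, and above them for Stat2 and Irf9.

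Among the signal transducers, Stat2 (ENSMUSG00000040033, chromosome 10, 128270559 to 128292849) encodes the STAT protein specific to type I and type III interferon signalling. Its level in line 1.1 was 29.8 and 30.7 CPM in DMSO and 43.0 and 38.2 CPM in JQ1. In line 1.2 it was 31.9 and 32.7 CPM in DMSO and 46.6 and 43.9 CPM in JQ1. Every JQ1 library lay above every DMSO library. Stat2 rose by 0.46 ± 0.056 on the log2 scale (SE, n = 2 libraries a group; edgeR's quasi-likelihood test, adjusted p = 1.51e-07), by 0.43 in line 1.1 and 0.49 in line 1.2.

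Irf9 (ENSMUSG00000002325, chromosome 14, 55603571 to 55610030) encodes the DNA-binding partner of Stat2 in ISGF3. It had 10.6 and 11.3 CPM in DMSO and 13.1 and 14.7 CPM in JQ1 in line 1.1. In line 1.2 it had 9.84 and 9.03 CPM in DMSO and 12.8 and 15 CPM in JQ1. Here too all JQ1 libraries were above all DMSO libraries, and the rise was 0.45 ± 0.0913 (log2, SE; edgeR adjusted p = 0.000145). Its annotated exons overlap those of Rnf31 on the same strand, so its counts are uncertain to that extent. The call of Irf9 was lost with the level of Gm42418, an RNA that varied between libraries, as a covariate.

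Nmi (ENSMUSG00000026946, chromosome 2, 51948487 to 51973494) encodes a protein that binds STATs, and Ifi35 encodes its binding partner. Nmi had 11.8 and 8.99 CPM in DMSO and 6.2 and 6.02 CPM in JQ1 in line 1.1, and 12.1 and 13.9 CPM in DMSO and 5.11 and 7.45 CPM in JQ1 in line 1.2. All JQ1 libraries lay below all DMSO libraries, a log2 change of -0.92 ± 0.121 (SE; edgeR adjusted p = 4.82e-07). Ifi35 had 14.6, 12, 14.4 and 13 CPM in the DMSO libraries and 13.5, 14, 15 and 15.8 CPM in the JQ1 libraries, which overlap. Its log2 change was 0.10, with a 95% interval from -0.07 to 0.28 (edgeR adjusted p = 0.307). The partners Nmi and Ifi35 thus differed in outcome, although the difference between the genes was not tested. Per exon length, Ifi35 stood at 8.14 and Nmi at 4.47 RPKM (CPM divided by the exon length in kilobases), the mean level over all libraries.

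The genes of the ADP-ribosyltransferase complex fell more than most genes. Parp14 and Parp9 encode PARP family proteins and Dtx3l encodes an E3 ubiquitin ligase that pairs with Parp9. The 3 genes lie together on chromosome 16 (GRCm38). Parp14 (ENSMUSG00000034422) spans 35832874 to 35871544 on the minus strand, Dtx3l (ENSMUSG00000049502) 35926511 to 35939151 on the minus strand and Parp9 (ENSMUSG00000022906) 35938470 to 35972605 on the plus strand. Exons of Dtx3l and Parp9 overlap on opposite strands, and the counting's strand setting is not given in the sources used here, so reads from that overlap cannot be assigned with certainty. An exon of Parp14 overlaps Gm49730 on the same strand.

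Parp14 had 22.3 and 23.6 CPM in DMSO and 4.71 and 4.83 CPM in JQ1 in line 1.1. In line 1.2 it had 25.7 and 27.2 CPM in DMSO and 4.05 and 4.43 CPM in JQ1. The groups were far apart in both lines. The log2 change was -2.45 ± 0.0909 (SE; edgeR adjusted p = 5.1e-17), and 0.588% of the tested genes had a lower one. Dtx3l had 31.6 and 34.4 CPM in DMSO and 9.17 and 9.85 CPM in JQ1 in line 1.1, and 37.5 and 39.5 CPM in DMSO and 12.3 and 13.1 CPM in JQ1 in line 1.2. Again no JQ1 library came near a DMSO library, and the log2 change was -1.69 ± 0.0701 (SE; edgeR adjusted p = 3.61e-16).

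Parp9 had 24.3 and 26.8 CPM in DMSO and 12.5 and 12.9 CPM in JQ1 in line 1.1, and 29.0 and 26.7 CPM in DMSO and 14.9 and 13.8 CPM in JQ1 in line 1.2. It fell 1.97-fold, a log2 change of -0.98 ± 0.0718 (SE; edgeR adjusted p = 2.11e-11). The 3 genes had different estimates of the change. Their 95% intervals of the log2 change did not overlap, at -2.64 to -2.26 for Parp14, -1.84 to -1.55 for Dtx3l and -1.13 to -0.83 for Parp9, although the differences between genes were not tested. In DMSO the levels per length were 5.77 and 6.72 RPKM for Dtx3l (lines 1.1 and 1.2), 5.24 and 5.72 RPKM for Parp9 and 2.47 and 2.85 RPKM for Parp14. In JQ1 they were 1.66 and 2.22, 2.61 and 2.95, and 0.513 and 0.456 RPKM, so the order of Dtx3l and Parp9 by RPKM was exchanged.

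The immunity-related GTPases act on the membranes around intracellular pathogens, and Irgm1, Irgm2 and Igtp (Irgm3) belong to the subgroup that controls the others. All 4 tested genes of the family fell (31.3% of all genes did), although Irgm2 and Ifi47 passed the filter mainly through DMSO libraries. The remaining 3, Iigp1, Tgtp1 and Tgtp2, had 0 reads or 1 read in all. Irgm1 (ENSMUSG00000046879, chromosome 11, 48861968 to 48871683) had 14.5 and 12.3 CPM in DMSO and 5.78 and 4.47 CPM in JQ1 in line 1.1. In line 1.2 it had 16.6 CPM in both DMSO libraries and 6.78 and 5.50 CPM in JQ1. The JQ1 libraries were below the DMSO libraries in both lines. Irgm1 fell 2.66-fold, a log2 change of -1.41 ± 0.107 (SE; edgeR adjusted p = 3.84e-11), with -1.39 in line 1.1 and -1.43 in line 1.2.

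Igtp and Irgm2, whose promoters are printed above, lie below the level at which genes were to be named and were picked out after their values were seen. Igtp had 2.35 to 3.48 CPM in the 4 DMSO libraries and 0.547 to 0.975 CPM in the 4 JQ1 libraries, a log2 change of -1.87 ± 0.257 (edgeR adjusted p = 9e-07). Irgm2 had 1.90 to 2.39 CPM in DMSO and 0.413 to 1.06 CPM in JQ1, a log2 change of -1.80 ± 0.289 (edgeR adjusted p = 8.04e-06). Neither gene's groups overlapped. Annotated exons of these neighbours overlap on the same strand, so reads there may be lost or shared. Ifi47, at 0.287 to 1.99 CPM in DMSO and 0.248 to 0.528 CPM in JQ1, overlapped between treatments in line 1.1 but not in line 1.2. Its log2 change was -1.13 ± 0.428 (edgeR adjusted p = 0.0258), and the call was lost under 8 of 19 alternatives. These included DESeq2 and leaving out 1 of 4 libraries, which came 1 from each group. It also shares exons with Olfr56 on the same strand.

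Among the other antiviral effectors, Samhd1 encodes a phosphohydrolase that depletes the nucleotides viruses need for reverse transcription. It was the listed gene with the most reads (ENSMUSG00000027639, chromosome 2, 157097533 to 157135265). Its level was 209 and 212 CPM in DMSO and 143 and 150 CPM in JQ1 in line 1.1, and 227 and 223 CPM in DMSO and 157 and 149 CPM in JQ1 in line 1.2. The treatments did not overlap, and the log2 change was -0.54 ± 0.0344 (SE; edgeR adjusted p = 1.56e-12). Sp100 (ENSMUSG00000026222, chromosome 1, 85649988 to 85709998), a component of PML nuclear bodies, had 27.2 and 29.8 CPM in DMSO and 18.5 and 21 CPM in JQ1 in line 1.1. In line 1.2 it had 31.5 and 32.3 CPM in DMSO and 23.1 and 21.8 CPM in JQ1. It likewise separated by treatment in each line, with a log2 change of -0.52 ± 0.0645 (SE; edgeR adjusted p = 2e-07).

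Trim30a, a member of the TRIM family of ubiquitin ligases, had 3.25 to 4.02 CPM in DMSO and 1.28 to 2.57 CPM in JQ1. It fell on average (log2 change -0.90 ± 0.19, edgeR adjusted p = 0.000234). Bst2, which encodes tetherin, the membrane protein that holds budding virions to the cell, had 35.1, 29.4, 37.1 and 35.7 CPM in the DMSO libraries and 34.5, 33.2, 36.9 and 39.5 CPM in the JQ1 libraries. These ranges overlap. The log2 change of Bst2 was 0.06, with a 95% interval from -0.06 to 0.19 (edgeR adjusted p = 0.362). Per length, Bst2 was the most abundant listed gene at a mean of 38.9 RPKM, ahead of Samhd1 at 20.1, Ifi35 at 8.14 and Stat2 at 6.26 RPKM. The most abundant listed gene per length was therefore one that did not pass the test.

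The second comparison asked whether the lines responded differently. None of the 15 genes was called in the difference of the JQ1 effects between lines (edgeR's quasi-likelihood test), none had an unadjusted p below 0.05, and none was called by DESeq2 or limma-voom. Over all genes 14 were called, 0.113%. Parp14 had a log2 change of -2.26 in line 1.1 and -2.64 in line 1.2, a difference of -0.38 (edgeR adjusted p = 0.658). Trim30a passed in line 1.1, with a log2 change of -1.22, and not in line 1.2, with -0.58, but the difference of 0.64 did not pass either (edgeR adjusted p = 0.677). Ifi47 passed in line 1.2 only, with log2 changes of -0.46 in line 1.1 and -1.79 in line 1.2, and the difference was not called.

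**Figure D3:**
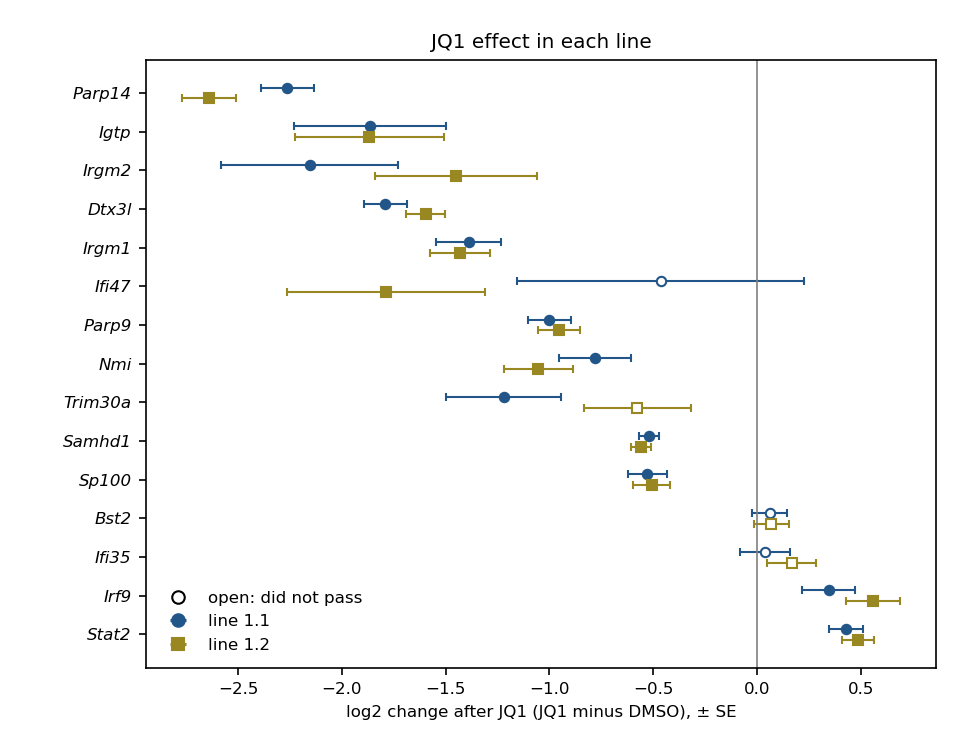
Log2 change after JQ1 (JQ1 minus DMSO, ± SE) of the 15 tested genes in line 1.1 and in line 1.2. In both lines Parp14 and Dtx3l lie far below 0, Stat2 and Irf9 lie above 0, and Bst2 and Ifi35 lie near it.

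The lines were also compared in DMSO alone. In line 1.2 against line 1.1, 1 of the 15 genes was higher (3.59% of all genes were) and none was lower (3.17%). The higher gene was Ifi47, with 0.532 and 0.287 CPM in line 1.1 and 1.08 and 1.99 CPM in line 1.2 (log2 difference 1.85 ± 0.475, edgeR adjusted p = 0.018). This call was lost without replicate 2 of the DMSO libraries of line 1.2 and with DESeq2. Unadjusted p-values were below 0.05 for 5 genes in all, namely Ifi47, Irgm1, Parp14, Dtx3l and Nmi. Each was higher in line 1.2, and the last 4 did not pass the adjustment, with log2 differences of 0.29, 0.21, 0.23 and 0.31.

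Around the listed genes, a list of 94 further genes of the interferon pathway was described, of which 93 had a row and 58 were tested. In the averaged effect 18 rose, 32 fell and 8 did not pass, with a median log2 change of -0.26. The shares over all genes, against which these counts and those of the groups below are to be read, were 30.7% higher and 31.3% lower. All 9 interferon genes on it, among them Ifnb1 and Ifng, had 0 reads in every library. Of 8 tested receptor and kinase genes 4 rose and 3 fell. The type I receptor subunit gene Ifnar1 rose by 0.28 ± 0.0613 on the log2 scale (edgeR adjusted p = 0.0003) while Ifnar2 fell by 0.60. The gamma receptor subunit gene Ifngr1 rose by 0.26 ± 0.0568 (edgeR adjusted p = 0.000358) while Ifngr2 fell by 0.18. For the gamma receptor this opposite movement was not called within a single line, since Ifngr2 did not pass in line 1.1 (log2 change -0.04) nor Ifngr1 in line 1.2 (0.14). Jak1 and Jak2, which encode receptor-bound kinases, rose by 0.32 and 0.66, and Il10rb fell by 0.70. The rule for naming did not cover Ifnar2, Ifngr2, Jak1, Jak2 and Il10rb, which were named after their values were seen.

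Of 8 tested STAT and IRF genes outside the 43, 3 rose and 4 fell. Irf1, an early target of interferon gamma, had a log2 change of 0.09, with a 95% interval from -0.06 to 0.23 (edgeR adjusted p = 0.295). Irf8, a lineage factor of B and myeloid cells, rose by 0.62 ± 0.0392 (edgeR adjusted p = 1.28e-12). Irf4, its close relative in B cells, fell by 1.15 ± 0.0362 (edgeR adjusted p = 1.99e-18), and Irf5, which acts downstream of Toll-like receptors, fell by 1.04 ± 0.0438.

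Of 7 tested negative regulators 6 rose on average over the lines, of which 3 passed in line 1.1 and 4 in line 1.2. One fell, the phosphatase gene Ptpn6, by 0.96 on the log2 scale. Of 10 tested genes of nucleic acid sensing none was called higher and 8 were called lower. A further 1 had its JQ1 libraries above its DMSO libraries in both lines without being called. Among the 8, Tmem173, which encodes the DNA-sensing adaptor STING, had a mean of 39.5 CPM in DMSO and 7.80 CPM in JQ1 for line 1.1, and 37.4 and 7.99 CPM for line 1.2 (log2 change -2.29 ± 0.0742, edgeR adjusted p = 3.71e-18). Of 25 other tested interferon-inducible genes 5 rose and 16 fell. Ifi203, of the family of DNA-binding HIN proteins, fell by 1.93 ± 0.0755 (edgeR adjusted p = 1.28e-16). Pml, which encodes the scaffold of the nuclear bodies that hold Sp100, fell by 1.23 ± 0.0543. A difference between these groups of genes was not tested.

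**Figure D4:**
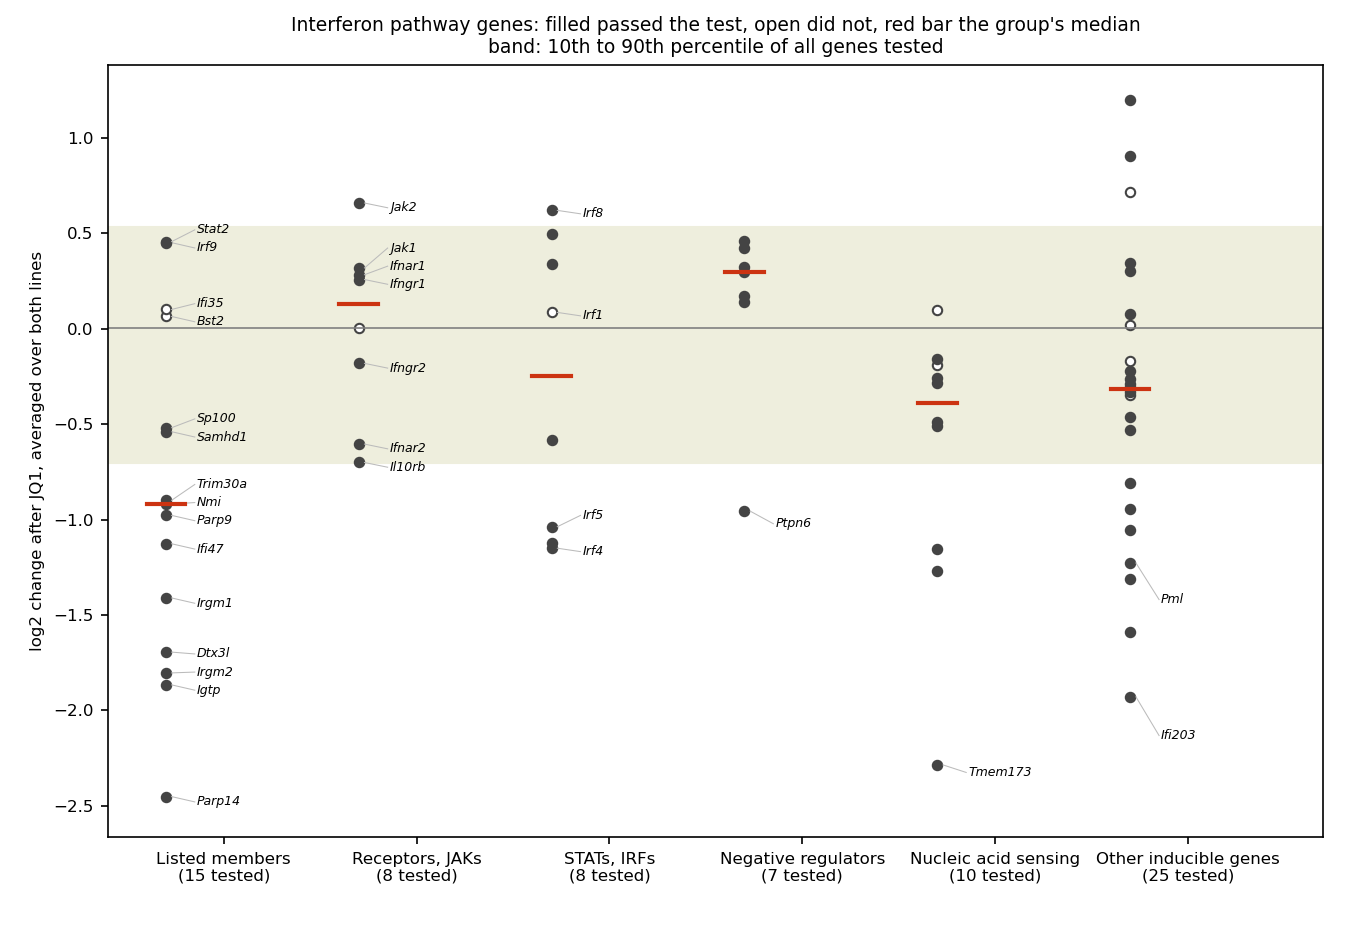
Averaged log2 change after JQ1 (vertical axis) of the 15 tested listed genes and of each tested gene of the wider pathway, by group, with labels for genes the text names (filled points passed the test, open points did not, red bars are medians), with a band from the 10th to the 90th percentile of all genes tested (-0.70 to 0.53). Nucleic acid sensing has no gene called higher, and Tmem173 is its lowest point.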

How the data were processed

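The authors deposited whole-number read counts per Ensembl gene, not normalised. Per the submitters' processing notes, the tools were Bowtie2, TopHat, HTSeq, cutadapt 1.7, FastQC and limma, and the genome build GRCm38 (mm10). For annotation release and counting strand, nothing is given in the sources used here. Reads with no gene (12.3 to 14.4%) and ambiguous reads (1.54 to 1.67%) stayed out, with all 5 summary lines. Positions and exon lengths are from GENCODE M21.

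In R 4.3.3, edgeR 4.0.16 fitted 4 group means to 8 libraries (filterByExpr with a minimum count of 10 and total of 15, TMM scaling, 4 residual degrees of freedom). The quasi-likelihood F test was two-sided, with Benjamini-Hochberg adjustment over 12413 genes and a threshold of 0.05. SEs derive from the F statistic. Values are relative to library totals, so a change in total RNA per cell would not show. The script was tested on simulated data.

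Full values are given for listed genes called in the averaged effect with a mean of at least 5 CPM, or called in the interaction or the line difference with at least 1 CPM. They are also given for Irf1, Irf8, Ifngr1, Ifnar1 and the 5 other pathway genes with the smallest p and at least 5 CPM. Not every gene under this rule is reported. The genes, lists and tests were chosen with earlier results of these data known. Alternatives were other scalings, DESeq2 1.42.0, limma-voom (limma 3.58.1), other filters, a replicate block, the level of Gm42418 as a covariate, a test against a fold change of 1.5, a threshold of 0.01, fits of the 4 libraries compared and each library left out.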

Additional observations from a re-analysis of the deposited data

How the results depend on the processing

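In the averaged effect, none of the 15 genes changed direction under any alternative run. Of the 15 genes, the rises averaged over the lines numbered 1 with Gm42418, an RNA at 1296 and 2644 CPM in the JQ1 libraries of line 1.2 and at 341 to 977 CPM in the others, as a covariate (Irf9 was lost), and 0 against a fold change of 1.5. The falls numbered 7 against that fold and 7 of 11 tested genes under a filter of 5 CPM in 2 libraries, where fewer genes were tested. They were 10 to 11 with 1 library left out. In line 1.1 the rises numbered 1 with DESeq2, 0 against a fold of 1.5, 1 at a threshold of 0.01, and 1 to 2 with 1 library left out (1 without DMSO replicate 1 or without JQ1 replicate 2 of that line). In line 1.2 they numbered 1 with Gm42418 and 0 against a fold of 1.5. For line 1.2 against line 1.1 in DMSO, the genes called higher numbered 0 with DESeq2, under the 5 CPM filter, against a fold of 1.5, at 0.01 and from the 4 libraries alone, and 0 to 3 with 1 library left out (3 without DMSO replicate 1 of line 1.1). The cause of the other changes was not tested. Deviations between replicates 1 and 2 were nearly uncorrelated between groups (correlations -0.03 to 0.08), which cannot show whether the replicates were paired by design. With a replicate block 2 genes rose and 11 fell, as without it, while calls of the interaction over all genes went from 14 to 26. Those calls ranged from 2 to 459 over the alternatives, with 459 without DMSO replicate 1 of line 1.1. Against a fold of 1.5, 586 of all genes were higher and 872 lower. With Gm42418 as a covariate, 1369 were higher and 1518 lower in line 1.2. Genes called higher between the lines in DMSO ranged from 56 to 590 and lower from 31 to 728. Other scalings moved the median log2 change of all genes by at most 0.04 downwards. Depth limits the 26 untested genes, which had 12 to 27 reads a library in all. Of these, 11 with no reads gave no fit, and with no filter 15 were fitted.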

Other observations

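Genes beside the listed ones did not all move with them. Within 200 kb of Parp14 on chromosome 16, Hspbap1, the nearest tested gene on the side away from Dtx3l, fell by 0.16 after JQ1 (log2). Gm15564, which overlaps the span of Parp9, rose by 0.73, and Kpna1, which lies beyond Parp9, rose by 0.38. Farther out, Dirc2 fell by 0.71, Wdr5b fell by 1.81 and Fam162a rose by 0.28. On chromosome 11, between Irgm1 and Tgtp2, 9930111J21Rik1 fell by 2.49 and 9930111J21Rik2 fell by 0.83, while Psme2b (0.11) did not pass. On the other side of Irgm1, Gm12184, the nearest tested gene, fell by 0.18, while Trim41, Rack1 and Gm12183 rose by 0.41, 0.13 and 0.35. Beside Igtp and Irgm2, Mrpl22 had a log2 change of -0.04, Zfp692 fell by 0.34 and Zfp672 rose by 0.90. Near other listed genes that fell, more neighbours fell too. Near Sp100, Sp110 and Sp140 fell by 0.81 and 0.67, while Cab39 rose by 0.27. Near Trim30a, Trim34a, Trim12a, Trim12c and Trim5 fell by 2.67, 0.92, 0.85 and 0.56, while Gm16464 rose by 1.74. Near Nmi, Rbm43 and Rif1 fell by 1.04 and 0.51, while Neb (0.60) did not pass. These neighbours were chosen after their values were seen, and all values are averaged effects from edgeR.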
